A study of Mus musculus with 6 samples.

Results

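The sarcomere scaffold genes described here are titin (Ttn), its Z-disc cap Tcap, the M-band myomesins Myom1 and Myom2, the cardiac myosin-binding protein C gene Mybpc3, and the Z-disc genes Actn2, Ldb3, Myoz2 and Nebl. They were taken by symbol from a table of read counts, which holds all 9 of them among 14495 genes. Messenger RNA came from ventricles of male mice of the C57BL/6 strain, taken 1 day (P1) or 14 days (P14) after birth, with no treatment named at either age. Each age had 3 libraries of poly(A)-selected RNA, each made from a pool of 3 hearts, so 9 hearts stood behind an age. The labels describe the tissue as ventricles with an intact septum and no atria in one field and as left ventricle in another. Replicates are therefore separate pools of animals, and no animal was measured at both ages.

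A sarcomere is bounded by Z-discs, where thin filaments are anchored and crosslinked, and carries at its centre the M-band, where thick filaments are held in register. Titin is a giant elastic protein that runs from the Z-disc, where telethonin (Tcap) caps its end, to the M-band, where myomesins tie it to myosin. In the ventricle its spring region is shortened by alternative splicing after birth, a change that counts per gene cannot show.

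At P14, 7 of the 9 genes were higher than at P1 and none was lower (edgeR's quasi-likelihood test across all genes, Benjamini-Hochberg adjusted p under 0.05, which is what rose, fell and called mean here). Tcap rose 13.8-fold, Myom2 2.62-fold, Myoz2 2.55-fold, Ldb3 1.95-fold, Myom1 1.93-fold, Nebl 1.63-fold and Mybpc3 1.55-fold. Ttn and Actn2 were not called. Over all 14301 tested genes 43.8% were called, 21.8% risen and 22.0% fallen. The values of the 3 P1 and the 3 P14 libraries did not overlap for 6 of the 9 genes, against 54.8% of all tested genes. The median log2 fold change of the 9 genes was 0.97, beside −0.01 over all tested genes. All levels are CPM, a gene's counts relative to a common library total after scaling by the trimmed mean of M-values (TMM), unless they are given per kilobase.

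Libraries held 5916557 to 17353933 counts, and each of the 9 genes had at least 597 counts in each library, so the spread between pools and not counting limits these values. Together they took 1.14% to 1.19% of the counts at P1 and 1.52% to 1.95% at P14. All 8 cardiomyocyte markers examined (Tnnt2, Tnnc1, Actc1, Myl3, Ryr2, Pln, Atp2a2 and Mb) were present. They summed to 45295 to 51934 CPM at P1 and 84169 to 103960 CPM at P14, and 6 rose. Of 10 skeletal muscle markers, 3 were in the table, with a summed level of 2.45 to 7.68 CPM, and the other 7, among them the skeletal myosin heavy chains Myh1, Myh2 and Myh4, were not analysed here. Atrial markers summed to 774 to 1634 CPM at P1 and 421 to 567 CPM at P14, and of the 4, Myl4 and Nppa fell. In bulk tissue, fewer cells of a type and less RNA per cell cannot be told apart. The higher cardiomyocyte marker sum at P14 moves with every rise given here, and its part in them was not tested beyond the ratios to these markers. Of the other lists, all 4 macrophage markers in the table rose (summed level 27.9 to 31.5 CPM at P1, 82.6 to 90.02 CPM at P14), as did 3 of 4 erythroid, 3 of 5 smooth muscle, 2 of 7 endothelial and 1 of 7 fibroblast markers, while 2 smooth muscle markers and 1 fibroblast marker fell.

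**Figure D1:**
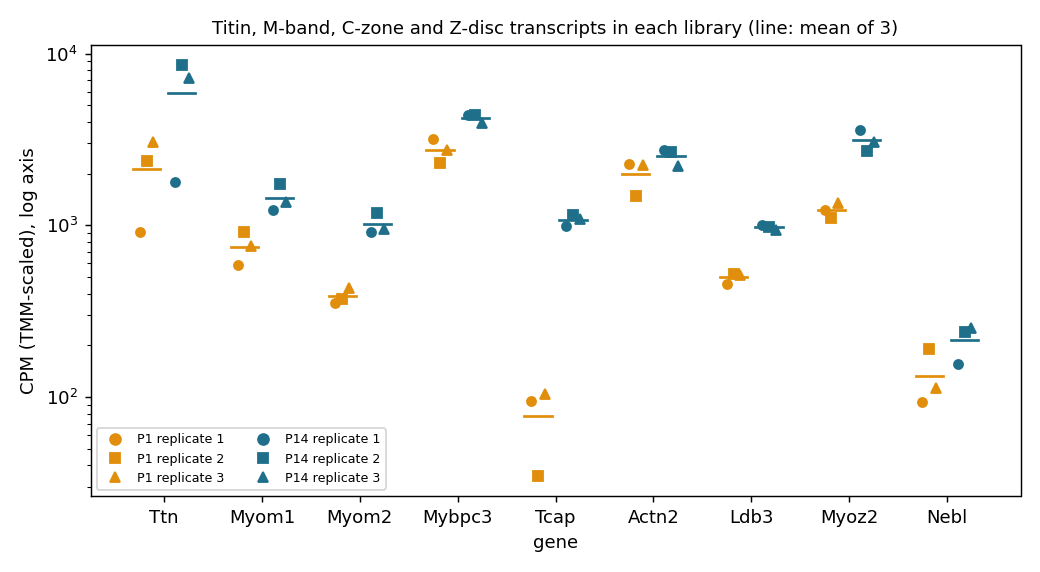
CPM of each gene in each library on a log axis, with P1 in orange, P14 in blue, a symbol per replicate and a line at the mean of 3. The P14 values of Tcap, 988 to 1147 CPM, lie far above the P1 values of 34.8 to 105 CPM, while for Ttn the replicate 1 library is the lowest at each age.

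Promoter sequences are shown for Ttn and for 4 genes that rose at P14, as examples of windows that hold a MEF2 or a CArG element, the binding sequences of the muscle factors MEF2 and SRF. Nebl, not shown, has 4 windows, of which 1 holds a CArG element, at −162, and the other 3 neither motif. Each runs 5′ to 3′ on the gene's strand from 250 bases before to 50 bases after a start annotated by RefSeq (GRCm38.p6). Capitals mark matches on either strand to MEF2, to CArG, to the GATA sequence AGATAA or to the cardiac element MCAT, whose letters are CATTCC, and different motifs did not overlap in these windows. The windows are chr2:76982498-76982797 (minus strand) for Ttn, chr2:91117894-91118193 (plus) for Mybpc3, chr3:123034938-123035237 (minus) for Myoz2, chr14:34588632-34588931 (minus) for Ldb3 and chr17:71019307-71019606 (plus) for Myom1.
Ttn: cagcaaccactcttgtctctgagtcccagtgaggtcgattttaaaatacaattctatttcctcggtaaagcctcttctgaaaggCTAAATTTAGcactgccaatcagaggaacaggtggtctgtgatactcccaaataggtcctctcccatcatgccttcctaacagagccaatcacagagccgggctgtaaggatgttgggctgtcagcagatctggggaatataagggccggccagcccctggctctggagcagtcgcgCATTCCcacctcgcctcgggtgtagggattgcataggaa
Mybpc3: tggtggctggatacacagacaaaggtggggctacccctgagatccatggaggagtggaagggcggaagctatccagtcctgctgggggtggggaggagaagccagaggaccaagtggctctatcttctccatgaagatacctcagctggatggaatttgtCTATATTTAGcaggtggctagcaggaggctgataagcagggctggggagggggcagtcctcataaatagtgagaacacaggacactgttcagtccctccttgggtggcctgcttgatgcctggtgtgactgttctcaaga
Myoz2: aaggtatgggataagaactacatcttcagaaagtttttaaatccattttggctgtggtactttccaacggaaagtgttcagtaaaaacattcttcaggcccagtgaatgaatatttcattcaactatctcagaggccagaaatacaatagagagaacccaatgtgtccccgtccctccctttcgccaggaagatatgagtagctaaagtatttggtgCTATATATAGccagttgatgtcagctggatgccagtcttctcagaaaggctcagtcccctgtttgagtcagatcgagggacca
Ldb3: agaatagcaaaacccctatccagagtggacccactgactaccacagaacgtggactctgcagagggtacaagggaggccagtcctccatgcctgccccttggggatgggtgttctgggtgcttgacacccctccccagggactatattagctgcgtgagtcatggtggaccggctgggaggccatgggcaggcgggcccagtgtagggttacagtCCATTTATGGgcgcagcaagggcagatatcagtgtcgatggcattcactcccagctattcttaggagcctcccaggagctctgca
Myom1: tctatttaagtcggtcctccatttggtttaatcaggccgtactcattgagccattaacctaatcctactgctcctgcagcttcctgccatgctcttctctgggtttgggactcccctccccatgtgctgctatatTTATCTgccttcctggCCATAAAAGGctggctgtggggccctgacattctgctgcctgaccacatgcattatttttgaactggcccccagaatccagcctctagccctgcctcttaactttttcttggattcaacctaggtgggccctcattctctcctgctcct

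The first capital run of Ttn and the runs of Mybpc3 and Myoz2 are MEF2 elements, starting at −166, −90 and −33 from the annotated start. The run of Ldb3 and the last run of Myom1 are CArG elements, at −35 and −99. RefSeq windows were matched for 7 of the 9 genes (11 windows, as some genes have several starts), and Tcap and Myom2 were not matched. A MEF2 element was present in 3 of the 11 windows and a CArG element in 4, compared with 3.19% and 1.63% of 32851 promoter windows of the same length. The windows of Ldb3 overlap and hold the same CArG element, so the 4 windows hold 3 distinct elements, in Ldb3, Myom1 and Nebl. E-boxes (CANNTG) were in 8 of the 11 windows and in 72.3% of all, GATA in 3 (11.2% of all) and MCAT in 2 (14.7% of all). A match is a run of letters and not a measured binding site.

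Titin itself was the most variable of the 9 genes. Ttn (ENSMUSG00000051747, chromosome 2, 76703980 to 76982547, minus strand, GRCm38, 345 merged exons) had 910.1, 2375 and 3075 CPM in P1 replicates 1 to 3 and 1798, 8561 and 7210 CPM in P14 replicates 1 to 3. The replicate 1 library was the lowest at each age, and P14 replicate 1 lay below P1 replicates 2 and 3, so the ages overlapped. The log2 fold change was 1.47 ± 0.73 (SE, 95% interval −0.38 to 3.31), with an edgeR adjusted p of 0.167.

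The call of Ttn depended on the test and the correction. With the replicate number as a block the log2 fold change was 1.35 with an edgeR adjusted p of 1.50e-05, and each P14 library was above the P1 library of its number. Without P14 replicate 1 it was 1.90 (edgeR adjusted p = 0.0106), and without both replicate 1 libraries 1.53 (0.00203). edgeR's exact test, without the block, also called it (adjusted p = 0.0137). It was not called after a correction for transcript GC content and length, either without the block (0.40, edgeR adjusted p = 0.0824) or with it (0.39, 0.0862). That correction was fitted to each library's deviation from the mean of all libraries, not of its age. Any change between ages that runs with GC content or length is therefore taken out as well, and the lower values cannot separate the 2. Ttn was called in 4 of the 21 alternatives, all given above, and not called in the other 17. Among those 17 were DESeq2 (adjusted p = 0.0640) and voom (adjusted p = 0.0667). Over all alternatives the adjusted p of Ttn ran from 1.50e-05 to 0.335.

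Long transcripts also had a low median in the replicate 1 libraries, though by less than Ttn. The longest annotated transcript of Ttn has 106824 bases. Over the 323 tested genes with a longest transcript of at least 10000 bases, the median deviation from the mean of the same age was −0.27 and −0.46 (log2) in replicate 1 of P1 and P14, and 0.07 to 0.27 in the other libraries. For Ttn those deviations were −1.05 and −1.42 in the replicate 1 libraries and 0.34 to 0.83 in the others. Nebl, whose longest transcript has 8079 bases, also lay low in both replicate 1 libraries, by −0.43 and −0.44. So did Myom1 (5648 bases, −0.33 and −0.23) and Myom2 (5075 bases, −0.125 and −0.139). Mybpc3 (4163 bases), Actn2 (3013 bases) and Myoz2 (2412 bases) lay above the mean in both. Ldb3 (5119 bases, −0.116 and 0.045) and Tcap (948 bases, 0.43 and −0.116) lay on either side of it, although Ldb3 is longer than Myom2. Over the 1363 tested genes of at most 1000 bases the medians ran from −0.15 to 0.14. The part of transcript length in the result for Ttn was not tested beyond that correction.

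**Figure D2:**
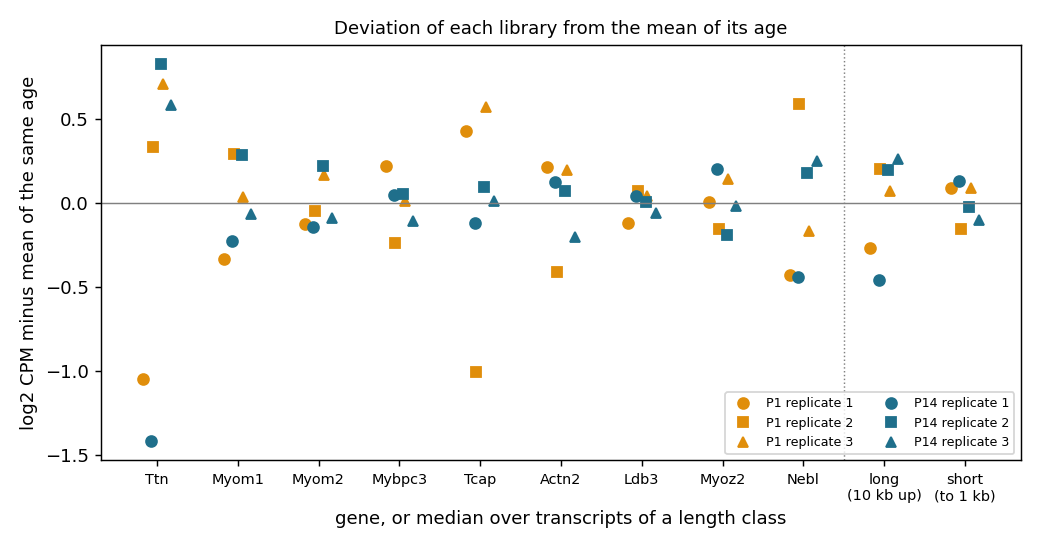
Difference of each library from the mean of its own age, in log2 CPM, for each gene and as the median over long (10000 bases and over) and short (up to 1000 bases) transcripts. Ttn in the replicate 1 libraries of P1 and P14 sits at −1.05 and −1.42, and the long transcripts of the same libraries sit at −0.27 and −0.46.

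Both myomesins of the M-band rose. Myom1 (ENSMUSG00000024049, chromosome 17, 71002633 to 71126856, plus strand), which encodes the myomesin present from early in heart development, had 587, 909 and 759 CPM at P1 and 1224, 1746 and 1373 CPM at P14. All P14 libraries were above all P1 libraries (log2 fold change 0.95 ± 0.23, SE, edgeR adjusted p = 0.00396). Myom2 (ENSMUSG00000031461, chromosome 8, 15057653 to 15133541, plus strand), which encodes M-protein, had 354, 374 and 434 CPM at P1 and 914, 1176 and 948 CPM at P14. The ages were again apart (log2 fold change 1.39 ± 0.21, SE, edgeR adjusted p = 1.00e-04), and the call held in all 21 alternatives. With library totals alone as the scaling, the call of Myom1 ended (log2 fold change 0.48, edgeR adjusted p = 0.115, range over all alternatives 9.76e-05 to 0.115).

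The ratio of Myom2 to Myom1 was higher at P14. Within a library, where scaling cancels, the ratio of Myom2 to Myom1 CPM was 0.603, 0.411 and 0.572 at P1 and 0.746, 0.673 and 0.691 at P14. No ratio of one age reached the other, and the log2 ratio differed by 0.43 (exact two-sided permutation test, p = 0.1, the smallest that 3 libraries against 3 can give, so this design cannot reach 0.05). Without P1 replicate 2, the lowest ratio, the difference was 0.26. This was 1 of 2 such ratio tests and the adjusted p is also 0.1. Myom3, the remaining myomesin gene, stayed at 1.34 to 3.17 CPM in all libraries. Per kilobase of merged exons, Myom1 made up 61.7% ± 4.84 (SD, n = 3) of the myomesin signal at P1 and 54.5% ± 1.35 at P14, and Myom2 38.1% ± 4.77 and 45.3% ± 1.31.

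Mybpc3 (ENSMUSG00000002100, chromosome 2, 91118144 to 91136516, plus strand) encodes the protein that binds myosin in the C-zone of the A-band and tunes crossbridge cycling. It had 3164, 2309 and 2743 CPM at P1 and 4367, 4394 and 3939 CPM at P14. The ages did not overlap, but the rise was the smallest among the called members, 0.63 ± 0.21 on the log2 scale (SE, edgeR adjusted p = 0.0228). Its call ended with library totals alone (0.17), after the GC and length correction (0.27) and without P1 replicate 3 or P14 replicate 2, with edgeR adjusted p-values of 0.594, 0.166, 0.0591 and 0.0873. It also ended without both replicate 1 libraries (0.0646). Its adjusted p ran from 0.00786 to 0.594 over all alternatives.

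Tcap changed most. Tcap (ENSMUSG00000007877, chromosome 11, 98383811 to 98384953, plus strand), with 2 exons and a single annotated transcript of 948 bases, had 94.4, 34.8 and 105 CPM at P1 and 988, 1147 and 1084 CPM at P14. No P14 library came near a P1 library, and P1 replicate 2 was the lowest of all. Its log2 fold change, 3.79 ± 0.37 (SE, edgeR adjusted p = 1.17e-05), was at percentile 99.4 of all tested genes. It ranged from 3.24 to 4.07 over all alternatives, with 3.43 without P1 replicate 2, and was called in each of the 21.

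The ratio of the cap to titin was higher at P14. The ratio of Tcap to Ttn CPM was 0.104, 0.0147 and 0.0341 at P1 and 0.550, 0.134 and 0.150 at P14. Every P14 ratio was above every P1 ratio, with the replicate 1 library the highest at each age. The log2 ratio was higher at P14 by 2.58 (exact two-sided permutation test, p = 0.1, adjusted p = 0.1 over 2 ratios, the smallest possible). It was 1.91 without P1 replicate 2 and 1.93 without P14 replicate 1.

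**Figure D3:**
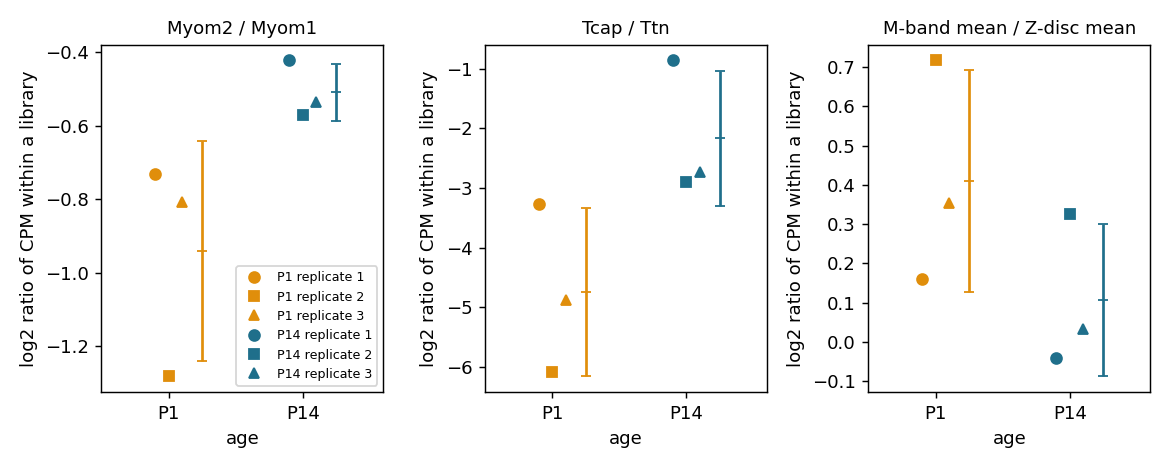
Log2 ratios of CPM within each library at P1 (orange) and P14 (blue), with a symbol per replicate and the mean with its SD beside them, for Myom2 to Myom1, Tcap to Ttn, and the mean of both myomesins to the mean of the 5 Z-disc genes. The first and second ratios do not overlap between ages, while the third does.

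Myoz2 and Ldb3 rose with little spread between pools. Myoz2 (ENSMUSG00000028116, chromosome 3, 123006206 to 123035015, minus strand) encodes calsarcin-1, which ties the phosphatase calcineurin to alpha-actinin. It had 1225, 1097 and 1350 CPM at P1 and 3575, 2720 and 3072 CPM at P14 (log2 fold change 1.35 ± 0.21, SE, edgeR adjusted p = 1.40e-04). Ldb3 (ENSMUSG00000021798, chromosome 14, 34526603 to 34588682, minus strand) encodes the PDZ and LIM domain protein ZASP, or Cypher, which binds alpha-actinin. It had 458, 522 and 511 CPM at P1 and 1002, 978 and 934 CPM at P14 (log2 fold change 0.97 ± 0.19, SE, edgeR adjusted p = 0.00103). Neither gene overlapped between ages. With library totals alone the call of Ldb3 ended (log2 fold change 0.51, edgeR adjusted p = 0.0871, range over all alternatives 2.94e-06 to 0.0871), and that of Myoz2 did not.

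Actn2 (ENSMUSG00000052374, chromosome 13, 12269426 to 12340760, minus strand) encodes the sarcomeric alpha-actinin that crosslinks thin filaments in the Z-disc. It had 2274, 1473 and 2245 CPM at P1 and 2759, 2666 and 2202 CPM at P14. The lowest P14 library lay below P1 replicates 1 and 3, so the ages overlapped. Its log2 fold change was 0.35 ± 0.22 (SE, 95% interval −0.13 to 0.82, edgeR adjusted p = 0.224), an interval that holds no change as well as a rise of over 1.5-fold. Without P1 replicate 2, its lowest library, the value was 0.17, and with library totals alone its sign turned, to −0.09. It was called under no alternative, with adjusted p from 0.184 to 0.873.

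Nebl (ENSMUSG00000053702, chromosome 2, 17343909 to 17731464, minus strand) encodes nebulette, a short relative of nebulin that sits on thin filaments at the Z-disc. It had 93.7, 190.1 and 112 CPM at P1 and 156, 240 and 252 CPM at P14, and P14 replicate 1 lay below P1 replicate 2. Its log2 fold change of 0.71 ± 0.27 (SE) passed the threshold narrowly, with an edgeR adjusted p of 0.0498. The call ended in 11 of 21 alternatives. They included library totals alone (0.21, edgeR adjusted p = 0.516) and leaving out P1 replicate 1 (0.50, 0.157), P1 replicate 3 (0.157), P14 replicate 2 (0.156), P14 replicate 3 (0.168) or both replicate 1 libraries (0.0714). Without P1 replicate 2 the log2 fold change was 1.06. The adjusted p ran from 8.25e-05 to 0.516 over all alternatives.

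**Figure D4:**
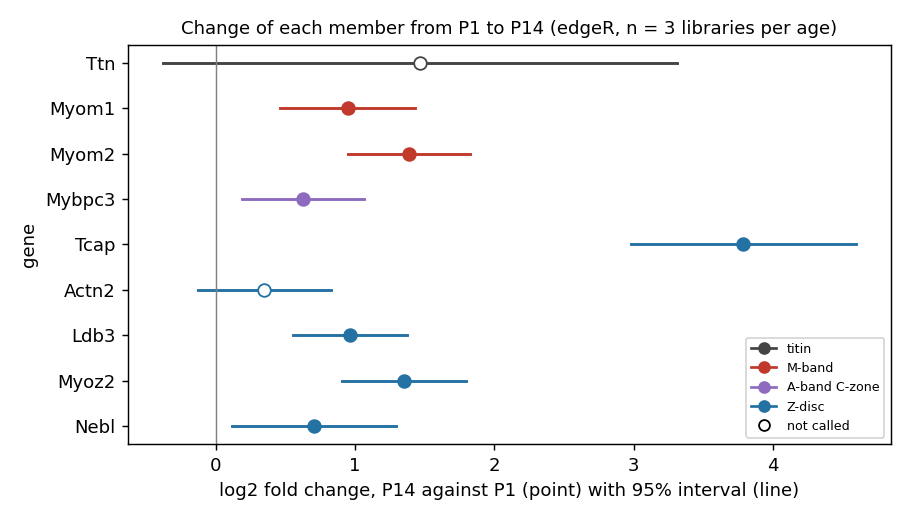
Log2 fold change of each gene from P1 to P14 (points, open where not called) with its 95% interval (lines), coloured by place in the sarcomere, from 3 libraries per age. Tcap stands at 3.79, the other Z-disc genes between 0.35 and 1.35, and the myomesins at 0.95 and 1.39.

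Myomesins and Z-disc genes were compared as classes. Both M-band genes rose (median 1.17 on the log2 scale), as did 4 of 5 Z-disc genes (median 0.97). The median over all tested genes was −0.01, and 21.8% of them rose. In each library the mean log2 CPM of Myom1 and Myom2 was set against that of Tcap, Actn2, Ldb3, Myoz2 and Nebl, leaving out Ttn, which spans both structures, and Mybpc3, which lies between them. This difference was 0.16, 0.72 and 0.35 at P1 and −0.04, 0.33 and 0.03 at P14. P14 replicate 2 lay above P1 replicate 1, so the ages overlapped, while within each of the 3 replicate numbers the P14 library was the lower. The mean change was −0.30, beside an SD of 0.28 among P1 libraries, and −0.15 without P1 replicate 2. It has no test because it is a score over chosen genes. Its sign rested on Tcap. Without Tcap it was 0.31, and with the median of the Z-disc genes in place of the mean it was 0.05. The Z-disc genes themselves ran from 0.35 for Actn2 to 3.79 for Tcap.

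Against the cardiomyocyte markers of the same library, the genes fell into unlike groups. Relative to the summed CPM of the 8 markers, Tcap was higher at P14 by 2.99, Myom2 by 0.44 and Myoz2 by 0.41 (log2), with no overlap between ages. Actn2 was lower by −0.57 and Mybpc3 by −0.30, also without overlap. The marker sum itself went from 45295 to 51934 CPM at P1 up to 84169 to 103960 CPM at P14, while the median log2 fold change over all tested genes was −0.01. A gene of unchanged level is therefore lower on this ratio too. The share of all genes without overlap on it was not computed. Ttn (0.41), Ldb3 (0.03), Myom1 (0.01) and Nebl (−0.20) overlapped between ages. When the mean log2 level of the 8 markers was used instead, which gives each marker equal weight, the differences were 2.88, 0.32 and 0.29 for Tcap, Myom2 and Myoz2, and −0.69 and −0.42 for Actn2 and Mybpc3. The values of Myoz2 then overlapped. These are descriptions with no test, and myoglobin (Mb), which alone rose from 3509 to 24124 CPM, is part of both references.

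The order of transcript levels changed chiefly at Tcap. Per kilobase of merged exons at P1, Mybpc3 was highest (658 ± 103 CPM per kilobase, SD, n = 3), followed by Actn2 (526 ± 120), Myoz2 (358 ± 37.0), Tcap (82.2 ± 39.8), Ldb3 (81.4 ± 5.63), Myom1 (71.9 ± 15.4), Myom2 (43.7 ± 4.71), Ttn (18.1 ± 9.46) and Nebl (8.67 ± 3.35). Neighbours in that order overlapped, except between Myoz2 and Tcap, between Myom1 and Myom2, and between Myom2 and Ttn. At P14 Tcap stood first (1132 ± 84.5), before Mybpc3 (1017 ± 61.4), Myoz2 (912 ± 126), Actn2 (669.9 ± 78.7), Ldb3 (159 ± 5.64), Myom1 (138 ± 25.7), Myom2 (114 ± 16.1), Ttn (50.1 ± 30.6) and Nebl (14.2 ± 3.43). There the breaks without overlap were between Myoz2 and Actn2, between Actn2 and Ldb3, and between Myom2 and Ttn. With the longest transcript as the length, Actn2 was first at P1 and Myoz2 first at P14, and Tcap stood at rank 6 and rank 2, so the top of the order depends on the gene model.

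Paralogues of the 9 genes, which serve other muscles, non-muscle cells or other parts of the sarcomere, moved both ways. Of 10 tested, 2 rose, 3 fell and 5 were not called, with a median of −0.07 (log2). These counts are near the shares over all tested genes, 21.8% risen and 22.0% fallen. Myoz1, the fast skeletal calsarcin, fell from 14.4, 13.1 and 13.5 CPM to 0.985, 0.398 and 1.16 CPM, opposite in direction to Myoz2. On the log2 scale this was −3.96 ± 0.34 (SE, edgeR adjusted p = 8.72e-07). Its share of the calsarcin signal per kilobase went from 1.99% ± 0.19 to 0.048% ± 0.021 (SD, n = 3). The non-muscle alpha-actinins Actn1 and Actn4 fell from 61.5 ± 4.31 to 29.9 ± 2.02 CPM and from 183 ± 57.2 to 122 ± 4.41 CPM. The call of Actn4 (edgeR adjusted p = 0.0488) ended without P1 replicate 1, P1 replicate 3 or any 1 P14 library (0.0991 to 0.282). With all libraries kept, it also ended under DESeq2 size factors in edgeR (0.0501), edgeR's exact test (0.0545) and voom (0.0749). Actn2 made up 92.8% ± 0.82 of the alpha-actinin signal at P1 and 96.3% ± 0.51 at P14.

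Mybpc2, the fast skeletal myosin-binding protein C, rose from 12.7 ± 3.86 to 27.4 ± 2.45 CPM, a call that ended with library totals alone (edgeR adjusted p = 0.0520). Mybpc3 held over 99% of that family at each age (99.5% and 99.3%). Mybphl, related to myosin-binding protein H, stood at 3.06 ± 2.13 CPM at P1 and rose to 7.42 ± 2.53 CPM at P14 (edgeR adjusted p = 0.0364). Its ages overlapped, and the call ended without P1 replicate 2, P1 replicate 3, P14 replicate 1 or P14 replicate 2 (0.104 to 0.136). Library totals alone ended it too (log2 fold change 0.72, edgeR adjusted p = 0.115). Among the nebulin relatives, Nrap had 251.6 ± 31.1 and 327 ± 24.6 CPM, Lasp1 50.1 ± 4.93 and 34.9 ± 12.2 CPM, and Neb 2.83 ± 1.39 and 1.66 ± 0.81 CPM, none of them called. With the replicate number as a block Lasp1 fell (log2 fold change −0.56, edgeR adjusted p = 0.0226), as it did without P14 replicate 1 (−0.83, 0.0106) and after the GC and length correction (−0.84, 0.00238). Neb was called lower after that correction too (−0.96, 0.0432), and both fell with library totals alone. Mybph (0.41 ± 0.39 on the log2 scale, SE) and Myom3 (0.72 ± 0.35) were low at both ages and not called. Mybpc1, Actn3 and Myoz3 were not analysed here.

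Other M-band genes mostly rose or were not called. Of 13, 6 rose, 1 fell and 6 were not called, with a median of 0.62 on the log2 scale beside −0.01 over all tested genes. Of all tested genes 21.8% rose and 22.0% fell. The largest rise was that of Trim54, a muscle RING-finger protein that binds microtubules, from 4.35, 1.52 and 5.05 to 60.0, 83.0 and 80.4 CPM. Its relative Trim55 fell from 186 to 22.4 CPM (means of 3), and no library of one age reached the other. Their log2 fold changes were 4.42 ± 0.37 and −3.06 ± 0.21 (SE). Trim63, the third of these ligases, had 168 ± 29.7 and 195 ± 3.16 CPM and was not called. Cmya5, which encodes myospryn, rose from 61.5 ± 18.3 to 217 ± 43.8 CPM and the kinase gene Speg from 55.2 ± 7.70 to 159 ± 31.7 CPM.

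Other Z-disc genes moved both ways. Of 22, 8 rose, 4 fell and 10 were not called, with a median of 0.24 on the log2 scale. Among all tested genes 21.8% rose and 22.0% fell. Xirp2, an actin-binding Xin repeat gene, rose from 6.66, 17.2 and 10.8 to 135, 246 and 211 CPM. Des, which encodes the intermediate filament desmin around Z-discs, rose from 1401 ± 569 to 3701 ± 181 CPM, and Bag3, a co-chaperone that clears damaged Z-disc proteins, from 89.8 ± 6.47 to 217 ± 47.2 CPM. Pdlim3, a PDZ and LIM protein related to Ldb3, fell from 91.5 ± 7.66 to 32.7 ± 8.14 CPM and Synpo2l from 422 ± 33.9 to 160 ± 2.66 CPM.

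Genes whose proteins bind the elastic I-band part of titin moved both ways. Of 5 tested, 2 rose, 2 fell and 1 was not called, beside 21.8% risen and 22.0% fallen over all tested genes. The ankyrin repeat gene Ankrd1, induced by stretch, fell from 1307, 1034 and 820 to 349, 457 and 482 CPM, while its relative Ankrd23 rose from 20.2 ± 7.24 to 76.1 ± 16.0 CPM. Fhl1, a LIM-domain protein, fell from 174 to 91.1 CPM (means of 3). Cryab, the small heat shock protein alpha-B crystallin, rose from 1246 ± 416 to 2188 ± 326 CPM (edgeR adjusted p = 0.0199), a call that ended without P14 replicate 1 (0.0731) or P14 replicate 2 (0.0655).

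Of 7 splicing regulators that act on titin or other sarcomere transcripts, 2 rose, 3 fell and 2 were not called. The shares over all tested genes were 21.8% risen and 22.0% fallen. Rbm20, which drives the exclusion of titin spring exons, had 126 ± 3.79 and 118 ± 24.3 CPM and was not called (−0.10 ± 0.20 on the log2 scale, SE, edgeR adjusted p = 0.718). Mbnl1 rose from 39.1 ± 11.1 to 163 ± 34.5 CPM and Rbfox1 from 4.89 ± 1.43 to 18.4 ± 3.26 CPM. Rbfox2 fell from 103 ± 5.07 to 60.3 ± 8.15 CPM, Rbm24 from 169.6 ± 21.9 to 99.3 ± 14.5 CPM, and Ptbp1, a repressor of muscle exons, from 43.6 ± 15.7 to 26.3 ± 3.52 CPM. The call of Ptbp1 (edgeR adjusted p = 0.0301) ended when any library other than P1 replicate 2 was left out (0.0586 to 0.206). With all libraries kept, it also ended under voom (adjusted p = 0.0596).

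**Figure D5:**
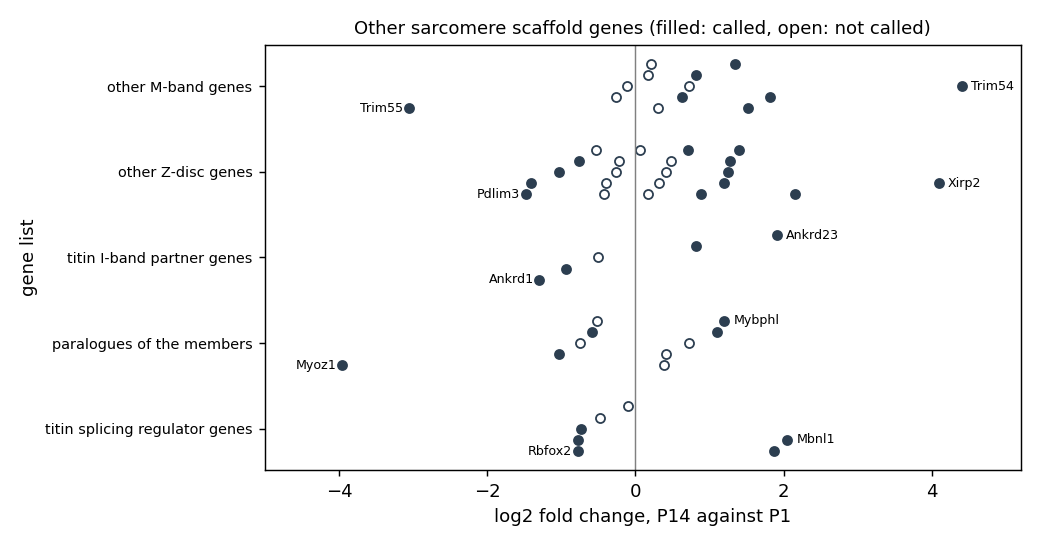
Log2 fold change from P1 to P14 of each tested gene of the 5 further lists, filled where called and open where not, with the lowest and highest gene of each list named. Trim54 (4.42) and Trim55 (−3.06) mark the ends of the M-band list, and Z-disc genes run from Pdlim3 (−1.48) to Xirp2 (4.09).

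The genes whose profiles over the 6 libraries lay nearest to a member were found by the distance between log2 CPM profiles, each centred on its own mean, among 8430 genes of at least 10 CPM outside the 9. All profiles come from the same 6 libraries, which differ in age, pool and depth together, so these distances are a description. Nearest to Ttn was Malat1, a long nuclear RNA (distance 0.58), with 527, 1149 and 1246 CPM at P1 and 1208, 4199 and 3281 CPM at P14, the replicate 1 library again the lowest at each age. Nearest to Tcap were Cd74 (0.56) and Trim54 (0.66). Nearest to Mybpc3 was Tnnt2, cardiac troponin T (0.12), and nearest to Myom2 were Gsdmd (0.25) and the mitochondrial carrier Slc25a4 (0.26). Among the 9 genes themselves, Mybpc3 and Actn2 had the most alike profiles (0.43), followed by Myom1 and Ldb3 (0.50), and Tcap and Actn2 the least alike (4.44).

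Reads of these genes were largely their own. Of all 36-base windows of their annotated transcripts, 98.4% (Myom1) or more occurred in no transcript of another gene. Exons of Ttn overlap Gm13938 and those of Myom1 overlap Myl12a on the opposite strand. The sources used here do not say whether counting used strand, so reads of these pairs cannot be told apart.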

How the data were processed

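The deposited table holds whole-number read counts per gene for 6 libraries, unnormalized, per the labels from poly(A)-selected RNA sequenced for 36 cycles. GRCm38 (mm10), bedtools and edgeR 3.2.4 are named, without roles, per the submitters' processing notes. An aligner, counting program, use of strand or annotation: not given in the sources used here. As the smallest row total is 60, genes with fewer counts are not analysed here. Columns were tied to samples by age and replicate number in their names.

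Genes were kept with filterByExpr (minimum count 10), leaving 14301, scaled by TMM and compared in edgeR 4.0.16 (R 4.3.3; robust quasi-likelihood F-test, age as the only term), with Benjamini-Hochberg adjustment over all genes tested. Each SE is the absolute log2 fold change over the root of its F statistic, and 95% intervals use the test's degrees of freedom. Ratios use log2 CPM with a prior count of 2. The fit was tested on simulated data. Alternatives included DESeq2 1.42.0 and voom (limma 3.58.1). Lengths and positions came from GENCODE M21 (GRCm38), which held 98.8% of the genes.

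The 9 genes and the lists were chosen with earlier results of these data known. Named are all 9, every tested paralogue, and per list up to 3 called genes of at least 10 CPM with the largest change in its main direction and up to 2 against it. Named outside that rule, after their values were seen, are Trim63, Rbm20 and the cell type markers.

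The labels give both ages replicates 1 to 3. Deviations from the age means correlated at 0.295, 0.112 and 0.102 between same-numbered libraries and at −0.214 to 0.09 between others. A rule that asks for over 0.1 in each pair was narrowly met, so fits with the replicate number as a block are given as alternatives. The main fit and the ratio tests printed above leave the number out. Permuted within replicate numbers, both ratios had p = 0.25 (exact two-sided permutation test), the smallest possible there. The labels do not say what same-numbered libraries share.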

Additional observations from a re-analysis of the deposited data

How the results depend on the processing

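Myom2, Tcap and Myoz2 kept direction and call in all 21 alternatives. Scaling by library totals moved the median over all genes (log2) from −0.01 to −0.47, with 1620 genes risen and 5592 fallen (22.5% of calls risen, 49.7% with TMM). Then 3 of the 9 members were called, all risen, beside 7212 of the 14301 tested genes called. Of the M-band list 3 fell, of the Z-disc list 9 fell, of the I-band list 1 rose, of the paralogues 0 rose and 5 fell, and Actn2, Mybph and Nrap turned to −0.093, −0.054 and −0.063. At an adjusted p under 0.01, 4135 genes were called (2025 fallen), and 1 I-band gene and 1 paralogue rose. Against a fold of 1.5 (glmTreat), 3403 of 14301 tested genes were called (1763 risen, 1640 fallen). Then 4 of the 9 members, 1 I-band gene and 1 paralogue rose, and 0 splicing regulators fell. After the GC and length correction, with or without the replicate block, 2 M-band genes and 5 paralogues fell. Leaving out 1 library gave 1 to 2 risen I-band genes and 1 to 2 risen paralogues, and 5 to 8 risen members. Of 14215 to 14489 genes tested in those fits, 2387 to 3401 rose. For Mybph, leaving out 1 library gave −0.021 (without P14 replicate 1) to 0.713. Without both replicate 1 libraries, an alternative chosen after seeing the data, 1 I-band gene rose and Mybph stood at −0.099. The M-band to Z-disc difference turned to 0.31 without Tcap and to 0.052 with the Z-disc median. With the replicate block 6996 of 14301 tested genes and 8 of the 9 members were called. Among the 9 members and the 28 list genes named by rule, the calls of Ttn and Lasp1 changed with it. The shallowest library, P1 replicate 3, holds 5916557 counts.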
